A study of Homo sapiens with 24 samples.

Results

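The genes described here are the NPIP and SMG1P copies of human chromosome 16. They were chosen by symbol: every gene of the count table whose symbol starts with NPIPA or NPIPB, or is SMG1P followed by a number. The rule took 31 of 60236 genes, namely 8 NPIPA, 14 NPIPB and 9 SMG1P copies. SMG1 itself was left out and is given beside them. All 31 lie on chromosome 16 in the GRCh38 annotation. Attention was drawn to these families by the HEK293T snaR-A against scramble comparison, in which SMG1P3 and NPIPB6 had large fold changes, so values of that comparison are given below as a description, with no test.

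Segmental duplication carried the NPIP (nuclear pore complex interacting protein) genes to many places on the same chromosome during primate evolution, and the copies still share long stretches of nearly identical sequence. SMG1 is a kinase of nonsense-mediated decay (NMD), the pathway that removes mRNAs with early stop codons, and it acts by phosphorylating the helicase UPF1. The SMG1P genes are partial copies of SMG1 that were spread by the same duplications, and several lie next to, or overlap, an NPIPB gene. A read from 1 copy can therefore belong to another, and both the single copies and the sum of each family are given.

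RNA was taken 48 h after transient transfection of HEK293T, a line from human embryonic kidney that carries the SV40 large T antigen, or of A549, a line from human lung adenocarcinoma. In each line 1 group received a plasmid with a U6 promoter driving snaR-A, a small noncoding RNA made by RNA polymerase III, and 1 group the same kind of plasmid with a scrambled snaR-A sequence (scramble). The other groups received a protein expression plasmid for SF3B2, a subunit of the U2 snRNP of the spliceosome, or for the fluorescent protein eGFP. Each of the 8 groups had 3 libraries, 24 in all, so scramble and eGFP differ in both plasmid type and insert, which cannot be told apart. The methods call the replicates biological and say they were handled on 1 day. Neither they nor the labels name separate cultures, so p-values measure the spread between these libraries, which may be technical.

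The libraries held 195186194 to 260878268 estimated counts, and 3 counts, the limit that a count of 0 allows, came to 0.0115 to 0.0154 CPM, which are counts scaled to the size of the library. Counting error alone is covered by that limit. Levels below are CPM scaled by the TMM method over all 24 libraries. Defining genes of each line matched the labels: KRT7 lay at 910 CPM or more in every A549 library and at 36.3 CPM or less in HEK293T, and NEFM at 127 CPM or more in HEK293T and 1.14 CPM or less in A549. HEK293T eGFP replicate 3 stood apart. There the 5 A549 markers summed to 311.9 CPM by library size, without TMM factors, against 12.99 to 24.08 CPM in the other HEK293T libraries. SF3B2 lay at 24050 to 37670 CPM in the HEK293T SF3B2 libraries and at 45560 to 48880 CPM in the A549 SF3B2 libraries, against 293.1 to 371.5 CPM in the others, except A549 scramble replicate 3 with 8773 CPM. For snaR-A replicate 3 of A549 the labels name both lines, and its A549 markers summed to 6914 CPM by library size. A smaller trace lay in HEK293T SF3B2 replicate 3, with AKR1B10, one of those markers, at 4.765 CPM, against 0.2369 and 0.3091 CPM in replicates 1 and 2. The part of these traces in the results was not tested.

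How alike the copies are is seen in their start regions. The sequences are windows around the gene start that RefSeq gives on GRCh38.p14, where 11 of the 28 member symbols had an entry. The starts of NPIPA1, NPIPA5 and NPIPB2, copies at separate places on the chromosome, are shown first because their 300 bases are nearly the same. Capitals in NPIPA1 mark the positions at which either of the others differs from it, and capitals in NPIPA5 and NPIPB2 mark their own differences from NPIPA1. The NPIPA1 window is chr16:14937193-14937492 on the plus strand, and that of NPIPA5 is chr16:15378245-15378544 on the minus strand. For NPIPB2 the window of lowest GC content was used, chr16:11941996-11942295 on the minus strand. All 3 windows lie inside the longer genes of the GENCODE annotation.
NPIPA1: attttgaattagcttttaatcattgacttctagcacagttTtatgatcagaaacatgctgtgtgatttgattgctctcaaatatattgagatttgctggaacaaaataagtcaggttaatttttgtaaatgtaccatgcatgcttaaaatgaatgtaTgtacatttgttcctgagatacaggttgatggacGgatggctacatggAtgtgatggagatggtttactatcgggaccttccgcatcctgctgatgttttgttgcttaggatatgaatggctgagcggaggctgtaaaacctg
NPIPA5: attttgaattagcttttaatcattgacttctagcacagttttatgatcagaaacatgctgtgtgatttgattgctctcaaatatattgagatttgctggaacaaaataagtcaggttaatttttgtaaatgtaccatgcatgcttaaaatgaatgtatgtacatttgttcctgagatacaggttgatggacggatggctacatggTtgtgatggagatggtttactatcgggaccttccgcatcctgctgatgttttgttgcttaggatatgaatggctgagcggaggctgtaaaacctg
NPIPB2: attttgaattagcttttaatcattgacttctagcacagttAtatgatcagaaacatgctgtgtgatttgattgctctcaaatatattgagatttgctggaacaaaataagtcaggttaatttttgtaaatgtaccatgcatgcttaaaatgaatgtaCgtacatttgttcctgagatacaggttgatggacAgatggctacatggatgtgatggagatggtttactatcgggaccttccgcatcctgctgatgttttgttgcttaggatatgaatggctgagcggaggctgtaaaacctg

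NPIPA5 differed from NPIPA1 at 1 of these 300 bases and NPIPB2 at 3, although NPIPB2 belongs to the other subfamily by name. A GC content of 37.7% was found in all 3 windows, against a median of 58.7% over the 35116 windows of the RefSeq table. The NPIPB2 window was picked for its low GC content, so its value follows in part from that choice. NPIPB3 and NPIPB4, which lie side by side with SMG1P3 and SMG1P4, shared a stretch of 202 bases without a difference. It is at chr16:21425427-21425628 for NPIPB3 and chr16:21857707-21857908 for NPIPB4, both on the minus strand.
NPIPB3 and NPIPB4: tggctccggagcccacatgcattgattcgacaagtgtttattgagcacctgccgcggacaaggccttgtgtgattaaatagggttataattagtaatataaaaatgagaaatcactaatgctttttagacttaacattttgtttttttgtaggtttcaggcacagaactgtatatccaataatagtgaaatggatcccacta

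NPIPB6 is shown because its fold change against scramble in HEK293T was the largest among the NPIPB copies with at least 1 CPM, and its RefSeq start is of another kind. The window chr16:28364731-28365030 on the minus strand lies upstream of the gene as GENCODE draws it, has a GC content of 72% and holds 31 CpG dinucleotides, against 4 in each of the windows above.
NPIPB6: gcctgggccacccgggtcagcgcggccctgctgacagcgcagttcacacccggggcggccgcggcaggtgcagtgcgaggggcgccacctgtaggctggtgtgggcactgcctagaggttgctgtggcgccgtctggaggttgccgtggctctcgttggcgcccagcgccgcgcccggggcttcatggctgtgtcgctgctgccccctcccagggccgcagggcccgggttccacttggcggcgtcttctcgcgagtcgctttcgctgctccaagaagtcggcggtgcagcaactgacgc

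Over whole transcripts, shared sequence was measured in another way. Of the distinct 31-base words in a member's annotated transcripts, a median of 96.9% of the words of an NPIPA copy, 87.9% of an NPIPB copy and 96.6% of an SMG1P copy also occurred in another gene. The range was 49.7% for SMG1P7 (ENSG00000291263) to 100% for SMG1P1 and for NPIPA9 (ENSG00000233024), which had no word of their own. For SMG1 the share was 19.5%. Of the words of SMG1P3, 53.6% occurred in SMG1 and 97.1% in genes outside the 3 families that overlap a copy. The symbols NPIPA9, SMG1P5 and SMG1P7, each had 2 Ensembl IDs in the table. RefSeq names the locus of NPIPA9 (ENSG00000183889) NPIPA6. How the reads were divided among copies, and between copies and genes outside the families, was not tested. Single copies are uncertain for that reason. Sums are too, as reads can pass between a family and the overlapping genes or, for SMG1P, SMG1.

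Expression was uneven within each family. A mean of at least 1 CPM over the 24 libraries was reached by 21 copies, 5 of NPIPA, 9 of NPIPB and 7 of SMG1P, and the means of the other 10 lay between 0.0003958 and 0.8308 CPM. NPIPA8 was at 0 in 22 of 24 libraries and SMG1P1 in 14. Of the summed NPIPA level in HEK293T, NPIPA1 (chromosome 16, 14922802 to 14952060) held 37.9% on average, NPIPA9 (ENSG00000183889) 33.8% and NPIPA9 (ENSG00000233024) 23.0%. In A549 these shares were 49.1%, 34.2% and 12.1%. NPIPB5 (16, 22479121 to 22536535) held 49.4% of the NPIPB level in HEK293T and 45.9% in A549, and NPIPB3 (16, 21402237 to 21448567) held 24% and 27.6%. Scaled to annotated exon length, NPIPB3 was the higher of the pair in both lines, at 6.08 CPM per kb in HEK293T and 8.61 in A549, against 3.78 and 4.45 for NPIPB5. That length merges the exons of all annotated transcripts, 3972 bases over 13 transcripts for NPIPB3 and 12775 over 24 for NPIPB5. The order per kb therefore depends on the annotation, and the length of the expressed transcripts was not measured.

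The SMG1P family had no single leading copy common to both lines. SMG1P2 (16, 29527568 to 29594966) held 29.8% of its level in HEK293T and 25.1% in A549. SMG1P5 (ENSG00000183604; 16, 30267553 to 30335054) held 16.6% in HEK293T and 53.1% in A549. SMG1P3 (16, 21447078 to 21501886) ranged from 6.38% to 27.5% of the family level among the HEK293T libraries and from 2.38% to 12.4% among those of A549. The spread between replicates was smaller for the sum than for most copies. The coefficient of variation within groups averaged 4.4% for the NPIPB sum in A549, where the copies with at least 1 CPM had a median of 10.1%, and 7.21% for the NPIPA sum, with a copy median of 14.4%. SMG1P in HEK293T went the other way, with 10.3% for the sum and 8.44% for the median copy, SMG1P3 alone reaching 39.5%.

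**Figure D1:**
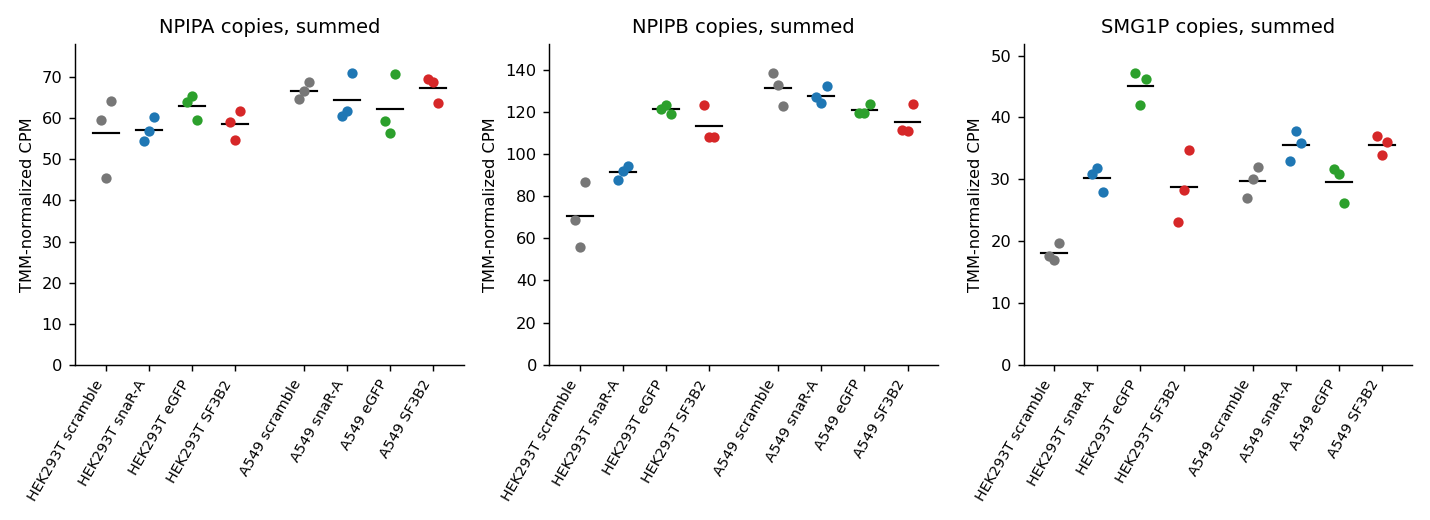
Summed level of the NPIPA, NPIPB and SMG1P copies in TMM-normalized CPM (y axis from 0) in each of the 24 libraries, by cell line and plasmid (x axis); points are libraries and bars are means of 3. The HEK293T scramble libraries lie lowest for NPIPB and SMG1P, and the HEK293T eGFP libraries, at 42.04 to 47.15 CPM, highest for SMG1P.

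In HEK293T, both NPIPB and SMG1P were lowest with scramble. The NPIPB sum was 68.65, 55.7 and 86.92 CPM in the 3 scramble libraries, 87.8, 91.92 and 94.51 CPM with snaR-A, 121.3, 123.2 and 119 CPM with eGFP, and 123.2, 108 and 108.1 CPM with SF3B2. Scramble replicate 3 came within 1 CPM of the lowest snaR-A library, while the eGFP and SF3B2 libraries stood clear of scramble. The log2 fold change of the NPIPB sum against scramble was 0.39 ± 0.13 (SE) with snaR-A, 0.79 ± 0.14 with eGFP and 0.69 ± 0.15 with SF3B2. Each SE was worked back from the fold change and the F statistic of the fit. In comparisons with HEK293T scramble it is not to be read as a test. Without scramble replicate 2 the log2 fold change with snaR-A was 0.24, and without scramble replicate 3 it was 0.56.

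The SMG1P sum was 17.56, 16.98 and 19.76 CPM with scramble, 30.85, 31.76 and 27.93 CPM with snaR-A, 47.15, 42.04 and 46.24 CPM with eGFP, and 23.05, 28.32 and 34.68 CPM with SF3B2. None of the other 9 libraries reached down to a scramble library, and the SF3B2 libraries varied most among themselves. Against scramble the log2 fold change was 0.75 ± 0.07 with snaR-A, 1.32 ± 0.07 with eGFP and 0.67 ± 0.14 with SF3B2. The NPIPA sum, at 59.57, 45.47 and 64.25 CPM with scramble and between 54.46 and 65.44 CPM in the other 9 HEK293T libraries, overlapped in every group. Its log2 fold changes were 0.03 ± 0.11, 0.16 ± 0.12 and 0.06 ± 0.13 in the same order. Without scramble replicate 2 the first and the third turned to -0.11 and -0.08. Without eGFP replicate 3, the library with A549 marker counts, the eGFP values were 0.20 for NPIPA, 0.80 for NPIPB and 1.30 for SMG1P. These 3 comparisons share the scramble libraries, so they are not independent of each other.

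The 2 copies that drew attention were SMG1P3 and NPIPB6. SMG1P3 lay at 1.138, 2.056 and 1.744 CPM with scramble, 6.72, 7.213 and 3.593 CPM with snaR-A, 12.25, 7.865 and 12.71 CPM with eGFP, and 1.47, 4.114 and 7.838 CPM with SF3B2. SF3B2 replicate 1 fell inside the scramble range, and the rest were above it. NPIPB6 (16, 28342517 to 28363508) lay at 1.736, 1.388 and 1.649 CPM with scramble, 4.633, 5.523 and 4.98 CPM with snaR-A, 8.268, 10.02 and 7.615 CPM with eGFP, and 5.024, 4.923 and 5.295 CPM with SF3B2. Its 4 groups were ordered scramble, then snaR-A and SF3B2, which overlapped, then eGFP. In log2 fold change against scramble SMG1P3 was 1.84 ± 0.29 with snaR-A, 2.73 ± 0.27 with eGFP and 1.45 ± 0.53 with SF3B2, the last falling to 0.77 without SF3B2 replicate 3. NPIPB6 was 1.67 ± 0.12, 2.44 ± 0.14 and 1.68 ± 0.12. Without eGFP replicate 3 the eGFP values were 2.61 for SMG1P3 and 2.53 for NPIPB6.

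**Figure D2:**
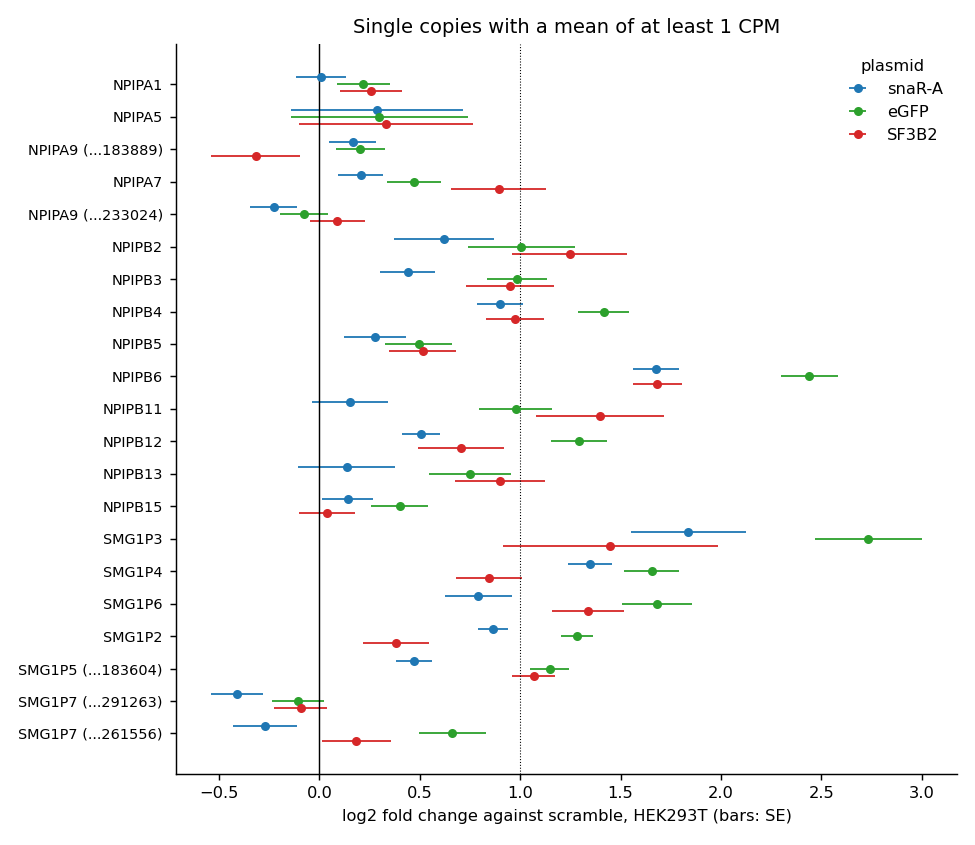
Log2 fold change against scramble in HEK293T (x axis) of the 21 copies with a mean of at least 1 CPM (y axis), for snaR-A, eGFP and SF3B2; points are edgeR estimates from 3 against 3 libraries, bars are standard errors, and the dotted line marks a log2 fold change of 1. NPIPB6 and SMG1P3 lie farthest right with eGFP, at 2.44 and 2.73, and the NPIPA copies lie between -0.32, for NPIPA9 (ENSG00000183889), and 0.89, for NPIPA7, both with SF3B2.

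With snaR-A, 5 of the 29 copies that passed the low-count filter were above a log2 fold change of 1 (SMG1P3, SMG1P4, NPIPB6, NPIPB9 and NPIPA3), where 5.15% of all 22667 genes were. With eGFP it was 16 of 29, against 9.91% of 22613, and with SF3B2 8 of 30, against 7.38% of 22593. Nothing is read from these shares, since the first comparison brought the families forward and the others share its controls. The median over the copies tested was 0.51, 1.09 and 0.75, against -0.01 over all genes in each. By family the eGFP medians were 0.30 for NPIPA, 1.15 for NPIPB and 1.30 for SMG1P. All 14 NPIPB copies had a positive estimate in each of the 3 comparisons, from 0.04 for NPIPB15 with SF3B2 to 2.44 for NPIPB6 with eGFP.

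Exceptions were found among the SMG1P7 genes, which overlap each other at 70 Mb. SMG1P7 (ENSG00000291263; 16, 70219574 to 70226033), a noncoding RNA gene with the lowest share of common words, lay at 4.132, 3.266 and 4.456 CPM with scramble and at 2.813, 2.813 and 3.249 CPM with snaR-A. Its log2 fold change was -0.41 ± 0.13 with snaR-A, -0.11 ± 0.13 with eGFP and -0.09 ± 0.13 with SF3B2. The other SMG1P7 gene (ENSG00000261556) lay at 1.605, 1.063 and 1.494 CPM with scramble and 1.138, 1.103 and 1.184 CPM with snaR-A. With SF3B2 it lay at 1.527, 1.55 and 1.63 CPM. With eGFP it was above every scramble library, at 2.309, 2.221 and 2.047 CPM. SMG1 itself lay at 119.1, 139.7 and 162.3 CPM with scramble and 157, 138.1 and 140.8 CPM with snaR-A, which overlap. It had 185.5, 155.7 and 172.1 CPM with eGFP and 168.9, 186.2 and 181.3 CPM with SF3B2, of which 1 eGFP library fell inside the scramble range. The log2 fold changes of SMG1 against scramble were 0.06 ± 0.10, 0.29 ± 0.11 and 0.36 ± 0.11, smaller than those of the SMG1P sum.

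SF3B2 against eGFP in HEK293T does not use the scramble libraries and was tested. The SMG1P sum was lower with SF3B2 in every library, at 23.05, 28.32 and 34.68 CPM against 47.15, 42.04 and 46.24 CPM. Its log2 fold change of -0.67 ± 0.14 did not pass adjustment over all genes (edgeR quasi-likelihood F-test, Benjamini-Hochberg adjusted p = 0.1). It passed with SF3B2 replicate 3 left out, the library with the smaller trace of A549 markers, at -0.81 with an adjusted p of 0.0326, and stood at -0.65 with an adjusted p of 0.194 without eGFP replicate 3, the library with A549 marker counts. The NPIPA sum differed by -0.12 ± 0.07 (adjusted p = 0.308) and the NPIPB sum by -0.11 ± 0.07 (adjusted p = 0.35).

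No single copy of the 30 tested passed, where 0.172% of 22623 genes did. At an unadjusted p under 0.05 there were 14 copies and 21.7% of genes, with edgeR's exactTest 4 copies and 2.85% of genes passed, and with DESeq2 10 copies and 9.19%. Without SF3B2 replicate 3, 5 copies and 8.09% of genes passed. The median over the copies was -0.37, against -0.02 over all genes. NPIPB6 was at -0.78 ± 0.12 (adjusted p = 0.0678), SMG1P2 at -0.92 ± 0.16 (adjusted p = 0.0781) and SMG1P3 at -1.31 ± 0.54 (adjusted p = 0.227). SMG1P2 lay at 5.61, 7.123 and 8.856 CPM with SF3B2 and at 13.26, 14.29 and 12.93 CPM with eGFP, without overlap. SMG1 was at 0.05 ± 0.08 (adjusted p = 0.741).

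In A549 the levels of the families with different plasmids overlapped more. The NPIPB sum lay at 138.3, 132.8 and 122.9 CPM with scramble, 126.8, 124 and 132.2 CPM with snaR-A, 119.2, 119.3 and 123.7 CPM with eGFP and 111.2, 110.7 and 123.5 CPM with SF3B2. Every group overlapped with another. The SMG1P sum lay at 26.99, 30.01 and 32 CPM with scramble, 32.92, 37.87 and 35.92 CPM with snaR-A, 31.67, 30.83 and 26.16 CPM with eGFP, and 36.92, 33.84 and 36.08 CPM with SF3B2. The snaR-A and SF3B2 libraries were above all scramble and eGFP libraries by a small margin.

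Between snaR-A and scramble in A549, the log2 fold change was -0.05 ± 0.07 for NPIPA (adjusted p = 0.902), -0.04 ± 0.06 for NPIPB (adjusted p = 0.902) and 0.26 ± 0.08 for SMG1P (adjusted p = 0.795). None of 27 copies tested passed, where 0.0185% of 21662 genes did. At an unadjusted p under 0.05 there were 3 copies and 6.14% of genes, with exactTest no copy and 0.0923% of genes passed, and with DESeq2 1 copy and 0.175%. Leaving out scramble replicate 3 or snaR-A replicate 3 left the number at 0, where 53 of 22172 and 1 of 22218 genes passed. NPIPB6 was at 0.13 ± 0.09 (adjusted p = 0.829) and SMG1P3 at 0.87 ± 0.46 (adjusted p = 0.798). SMG1P3 lay at 3.38, 4.688 and 2.882 CPM with snaR-A and at 0.9326, 1.492 and 3.564 CPM with scramble, where the highest was replicate 3, the library with the high SF3B2 level.

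Between eGFP and scramble in A549, the NPIPA, NPIPB and SMG1P sums differed by -0.11 ± 0.09 (adjusted p = 0.98), -0.13 ± 0.06 (adjusted p = 0.817) and -0.01 ± 0.09 (adjusted p = 0.998). No copy of 27 passed, where 1.49% of 21578 genes did. At an unadjusted p under 0.05 there were 3 copies and 6.66% of genes, and exactTest and DESeq2 each called 1 copy, against 1.96% and 2.47% of genes. Without scramble replicate 3 the number of copies stayed at 0, where 298 of 22080 genes passed. The difference between the lines in this comparison was not tested.

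SF3B2 against eGFP in A549 gave 2 copies past the threshold, both higher with SF3B2 (2 of 27, where 3.42% of 21581 genes were higher and 3.6% lower). NPIPB6 lay at 5.06, 5.601 and 5.224 CPM with SF3B2 and at 3.949, 4.278 and 4.17 CPM with eGFP, a log2 fold change of 0.37 ± 0.08 (adjusted p = 0.0415). NPIPA9 (ENSG00000183889) lay at 27.31, 28.57 and 22.08 CPM with SF3B2 and at 19.65, 18.41 and 20.47 CPM with eGFP, at 0.43 ± 0.10 (adjusted p = 0.0435). The groups did not overlap for either. No copy was also past a log2 fold change of 1, where 1.11% of genes were. Both calls were lost when a single library such as eGFP replicate 1 was left out, and 4 copies and 14.7% of genes passed without eGFP replicate 3. The SMG1P sum was at 0.28 ± 0.07 (adjusted p = 0.0696), NPIPA at 0.13 ± 0.09 (adjusted p = 0.446) and NPIPB at -0.06 ± 0.06 (adjusted p = 0.605).

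SF3B2 against scramble in A549 gave 0 of 27 copies, where 0.233% of 21461 genes passed. At an unadjusted p under 0.05 there were 6 copies and 13.1% of genes, exactTest called no copy and 0.997% of genes, and DESeq2 2 copies and 1.76%. Without scramble replicate 3, the library with the high SF3B2 level, 8 copies and 21.9% of genes passed. The SMG1P sum was then at 0.31 (adjusted p = 0.0134), against 0.27 ± 0.07 (adjusted p = 0.334) with all libraries, and the NPIPB sum at -0.24 (adjusted p = 0.0331), against -0.18 ± 0.07 (adjusted p = 0.374). Of these 8, NPIPA9 (ENSG00000183889) and SMG1P2 were higher with SF3B2, and NPIPA1, NPIPA7, NPIPA9 (ENSG00000233024), NPIPB2, NPIPB3 and NPIPB11 were lower.

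The effect of SF3B2 against eGFP differed between the lines for SMG1P. As HEK293T minus A549, the difference in log2 fold change of the SMG1P sum was -0.92 ± 0.18 (interaction term over 12 libraries, adjusted p = 0.0196), from -0.67 in HEK293T and 0.28 in A549. It held without eGFP replicate 3 of HEK293T (-0.91, adjusted p = 0.0261). Adjusted p was above 0.05 with the replicate number as a block (0.0568), although libraries were not paired by number, and with HEK293T eGFP replicate 1, HEK293T SF3B2 replicate 2 or A549 SF3B2 replicate 1 or 3 left out (0.0503 to 0.06). For NPIPA the difference was -0.22 ± 0.12 (adjusted p = 0.254) and for NPIPB -0.03 ± 0.09 (adjusted p = 0.855). With scramble as the reference, the SMG1P sum was higher with SF3B2 in both lines, at 0.67 in HEK293T and 0.27 in A549. The eGFP mean was the highest of the HEK293T groups, at 45.14 CPM. In A549 it was the lowest, at 29.55 CPM, close to scramble at 29.67 CPM. Whether the lines differ in SF3B2 against scramble was not tested.

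Among single copies, NPIPB6 and SMG1P2 passed this test, both lower in HEK293T relative to A549, 2 of 30, where 2.58% of 24714 genes were lower and 3.52% higher. NPIPB6 differed by -1.12 ± 0.15 (adjusted p = 0.0034) and SMG1P2 by -1.52 ± 0.28 (adjusted p = 0.0156). Both calls held under every alternative tried, leaving out each library included. SMG1P2 lay at 10.32, 11.23 and 9.512 CPM with SF3B2 and at 6.878, 8.509 and 4.939 CPM with eGFP in A549, so it lay higher with SF3B2 there and lower in HEK293T. The median difference over the 30 copies was -0.51, against -0.02 over all genes. SMG1 differed by 0.21 ± 0.11 (adjusted p = 0.219).

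**Figure D3:**
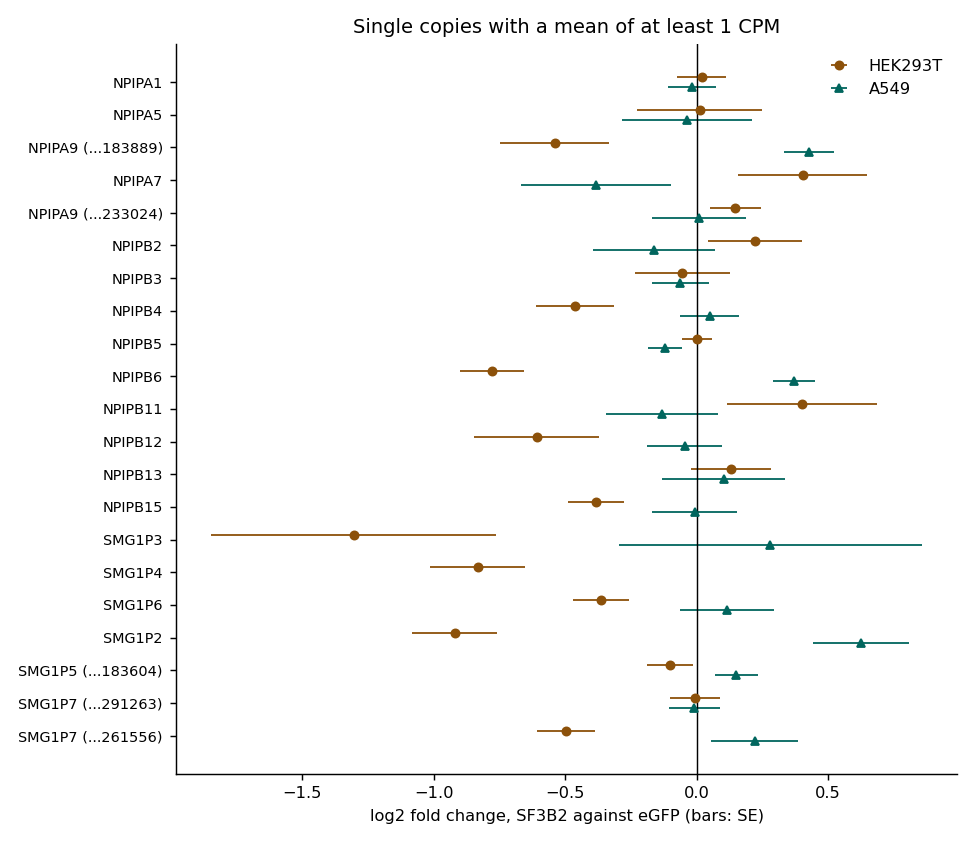
Log2 fold change of SF3B2 against eGFP (x axis) of the 21 copies with a mean of at least 1 CPM (y axis), in HEK293T (circles) and in A549 (triangles); points are edgeR estimates from 3 against 3 libraries and bars are standard errors, and SMG1P4 has no A549 point because it did not pass the low-count filter. NPIPB6 and SMG1P2 lie left of 0 in HEK293T, at -0.78 and -0.92, and right of 0 in A549, at 0.37 and 0.63.

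The 2 lines were compared with eGFP and with SF3B2. Scaling matters here: the TMM factors were 0.801 to 0.881 in A549 and 1.024 to 1.252 in HEK293T, and without them the median log2 fold change of all genes went from 0.06 to 0.57 with eGFP and from 0.01 to 0.38 with SF3B2. With eGFP the SMG1P sum was higher in HEK293T, 42.04 to 47.15 CPM against 26.16 to 31.67 CPM, a log2 fold change of 0.64 ± 0.09 (adjusted p = 0.000574), while NPIPA was at 0.05 ± 0.09 (adjusted p = 0.639) and NPIPB at 0.04 ± 0.04 (adjusted p = 0.421). With SF3B2 the SMG1P sum was at -0.32 ± 0.14 (adjusted p = 0.0744), NPIPA at -0.21 ± 0.06 (adjusted p = 0.0189) and NPIPB at -0.03 ± 0.07 (adjusted p = 0.726). By library size alone the NPIPA sum was at 0.56 (adjusted p = 0.000841) and the NPIPB sum at 0.54 (adjusted p = 3.57e-05) with eGFP, both near the median of all genes, and with SF3B2 all 3 sums turned positive, at 0.17 for NPIPA, 0.34 for NPIPB and 0.07 for SMG1P. The SMG1P sum with SF3B2 also turned positive when overlapping genes without a symbol were added to it, an alternative chosen after seeing the data. Mean NPIPB levels by library size with eGFP were 149.5 CPM in HEK293T and 102.7 CPM in A549.

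Single copies were called in both directions between the lines. With eGFP, 13 of 29 copies were higher in HEK293T and 2 lower, or 44.8% and 6.9%, where 40.2% and 36.8% of 23529 genes were. Without HEK293T eGFP replicate 3, 16 were higher and 2 lower, where 74% of genes were called either way, and the SMG1P sum was at 0.59 (adjusted p = 0.00152). With SF3B2, 8 were higher and 6 lower of 29, or 27.6% and 20.7%, where 37.4% and 37.1% of 23267 genes were. A log2 fold change past 1 as well was found for 10 and 7 copies, or 34.5% and 24.1%, against 46.3% and 44.9% of genes.

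SMG1P4 (16, 21879338 to 21916024) was close to absent in A549. Its level was 0 to 0.08751 CPM in the 12 A549 libraries, with 3 libraries at 0, and 1.743 to 6.607 CPM in the 12 HEK293T libraries. No library of one line reached the range of the other, HEK293T eGFP replicate 3 (5.954 CPM) included. The fitted log2 fold change of 7.29 ± 0.75 with eGFP (adjusted p = 0.000144) rests on few counts in A549 and depends on the prior count. SMG1P5 (ENSG00000183604) had the opposite order, 14.72 to 19.95 CPM in A549 and 2.708 to 6.861 CPM in HEK293T. Its log2 fold change was -1.30 ± 0.07 with eGFP (adjusted p = 6.05e-06) and -1.56 ± 0.09 with SF3B2 (adjusted p = 4.4e-06). By library size alone it was at -0.79 with eGFP (adjusted p = 7.49e-05), which is -1.36 relative to the median of all genes.

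**Figure D4:**
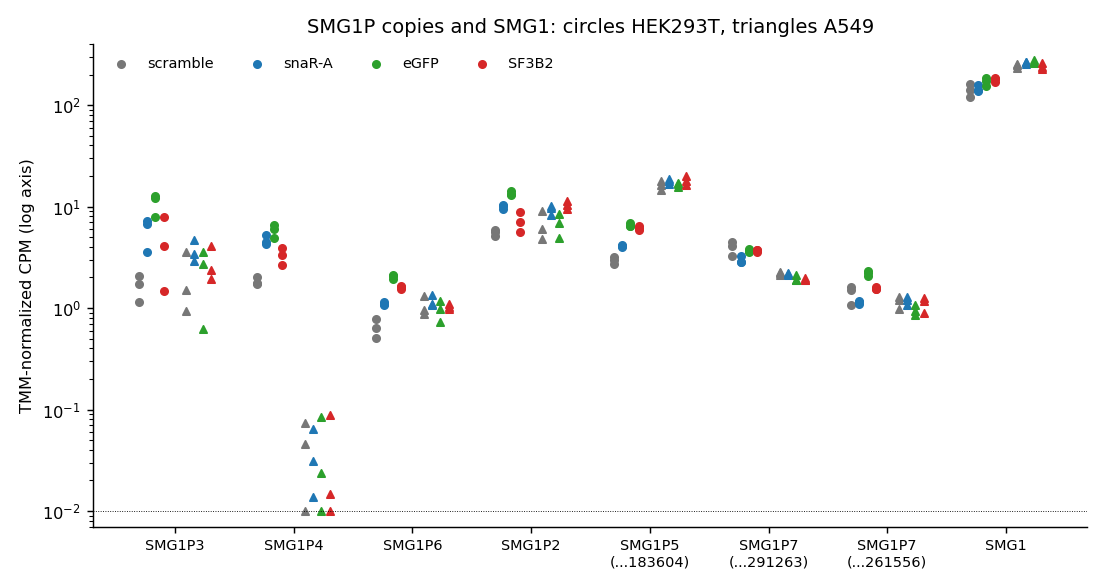
Level in TMM-normalized CPM (log axis) of the 7 SMG1P copies with a mean of at least 1 CPM and of SMG1 in all 24 libraries; circles are HEK293T, triangles A549, colours are plasmids, and values under 0.01 CPM are drawn on the dotted line. SMG1P4 lies below 0.1 CPM in all A549 libraries, and SMG1P5 (ENSG00000183604) lies higher in A549 than in HEK293T.

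In both line comparisons 6 copies were called higher in HEK293T, namely SMG1P4, SMG1P6, both SMG1P7 genes, NPIPB14P and NPIPA9 (ENSG00000233024), and 2 lower, SMG1P5 (ENSG00000183604) and NPIPA1. Of all genes, 18118 of 23529 were called either way with eGFP and 17331 of 23267 with SF3B2. The share of all genes called in both was not computed, so nothing is read from the number of shared calls. With eGFP, NPIPA1 was at -0.39 ± 0.10 (adjusted p = 0.00913) and NPIPA9 (ENSG00000233024) at 0.88 ± 0.17 (adjusted p = 0.00303). A further 2 were called with opposite signs. SMG1P2 was higher in HEK293T with eGFP (1.02 ± 0.19, adjusted p = 0.00263) and lower with SF3B2 (-0.53 ± 0.17, adjusted p = 0.0227), and NPIPA9 (ENSG00000183889) was at 0.24 ± 0.08 (adjusted p = 0.025) and -0.74 ± 0.22 (adjusted p = 0.0184). By library size alone the SF3B2 values of these copies were -0.15 (adjusted p = 0.536) and -0.35 (adjusted p = 0.238). Relative to the median of all genes they were -0.53 and -0.73. NPIPB14P, a transcribed pseudogene in the cluster at 70 Mb, lay at 0.4581 to 1.46 CPM in HEK293T and at 0.1236 to 0.4239 CPM in A549, without overlap, and 91.3% of its words occurred in genes outside the families that overlap a copy. Its log2 fold change was 2.27 ± 0.18 with eGFP (adjusted p = 4.32e-05). SMG1 was lower in HEK293T, at -0.62 ± 0.07 with eGFP (adjusted p = 0.000311) and -0.44 ± 0.07 with SF3B2 (adjusted p = 0.000916). By library size alone SMG1 was at -0.11 with eGFP (adjusted p = 0.214), or -0.68 relative to the median of all genes, and NPIPA1 changed sign to 0.12 (adjusted p = 0.252), or -0.45 relative to it.

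The share of counts from the mitochondrial genome moved with 2 copies in some groups. In HEK293T SF3B2 it was 10.8%, 8.37% and 5.75% in replicates 1, 2 and 3, where NPIPB11 lay at 5.561, 3.577 and 2.375 CPM and SMG1P2 at 5.61, 7.123 and 8.856 CPM. In A549 it was 16.3%, 14.4% and 10.0% in the scramble libraries, where NPIPB11 lay at 6.618, 5.807 and 3.366 CPM and SMG1P2 at 4.79, 6.03 and 9.038 CPM. Libraries with a larger mitochondrial share thus held more NPIPB11 and less SMG1P2 in both groups. The same held for A549 eGFP replicate 3, with 12.3%, 5.567 CPM of NPIPB11 and 4.939 CPM of SMG1P2, against 9.25% to 10.2%, 3.233 to 3.375 CPM and 6.878 to 8.509 CPM in the other eGFP libraries. Over all 8 groups, the 3 libraries had the same order by NPIPB11 as by mitochondrial share in 5 groups, and the reverse order by SMG1P2 in 4. By SMG1P2 the order was the same as by share in 1 group, HEK293T scramble, and mixed in the rest. Shares of 6.07%, 4.22% and 7.02% went there with 5.602, 5.179 and 5.868 CPM. Orders were counted for these 2 copies alone, not for other copies or all genes. Whether such counts are unusual for a gene therefore cannot be told. In the HEK293T scramble libraries the share was 4.22% to 7.02%, within the 4.09% to 7.05% of snaR-A and eGFP. The part of this share in the results was not tested.

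**Figure D5:**
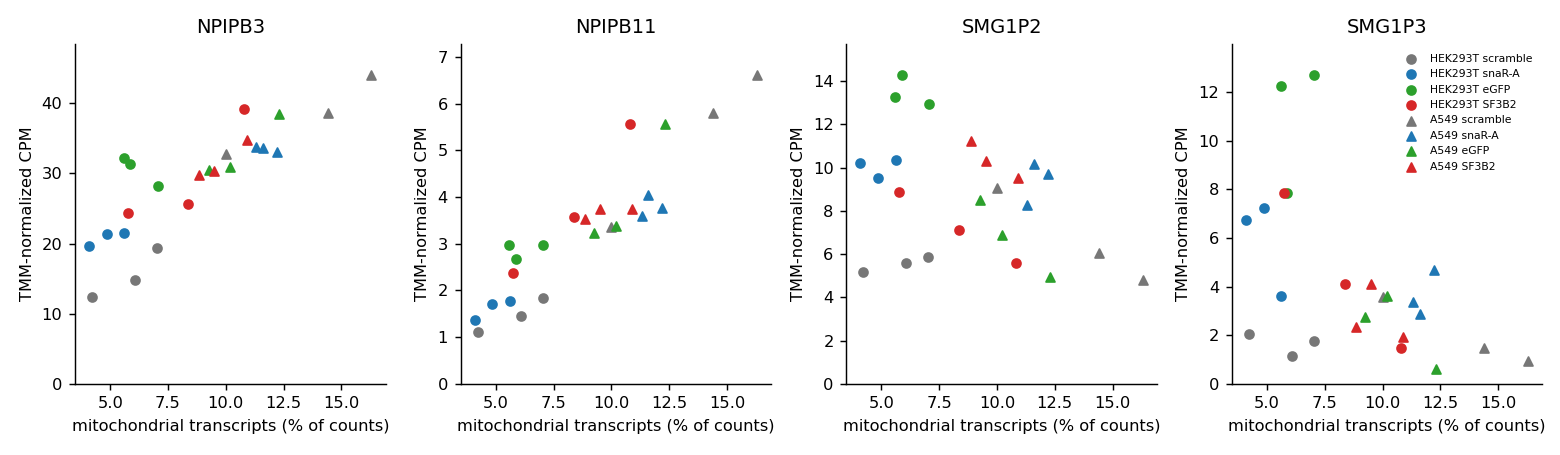
Level in TMM-normalized CPM of NPIPB3, NPIPB11, SMG1P2 and SMG1P3 (y axes from 0) against the share of counts from mitochondrial transcripts in percent (x axis) in the 24 libraries; circles are HEK293T and triangles A549, and colours are plasmids. NPIPB3 and NPIPB11 lie highest in A549 scramble replicate 1, at 44.04 and 6.618 CPM with a mitochondrial share of 16.3%, and SMG1P2 lies low there, at 4.79 CPM.

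Genes around the copies and in their pathway were counted from fixed lists. Of 22 NMD factors, none passed in HEK293T SF3B2 against eGFP, in A549 snaR-A against scramble, in A549 eGFP against scramble or in A549 SF3B2 against scramble, with list medians of -0.04 to -0.01. Of all genes, 0.0185% to 1.49% passed in these comparisons. In A549 SF3B2 against eGFP, 2 of 22 were higher and 2 lower, where 3.42% and 3.6% of all genes were. Among them were MAGOHB, an exon junction complex subunit, at -0.41 ± 0.05 (adjusted p = 0.00661), and UPF1 at 0.25 ± 0.04 (adjusted p = 0.0157). In the difference between the lines 3 of 22 were higher and 3 lower, where 3.52% and 2.58% of all genes were, with UPF1 at -0.52 ± 0.13 (adjusted p = 0.0392). Between the lines, 6 of 22 were higher and 13 lower in HEK293T with eGFP, where 40.2% and 36.8% of all genes were, and 7 and 11 with SF3B2, where 37.4% and 37.1% were. UPF3B, an X-linked partner of UPF2, was at 1.33 ± 0.11 (adjusted p = 5.16e-05) with eGFP and its paralog UPF3A at -1.22 ± 0.04 (adjusted p = 1.53e-06).

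Of 36 other genes in the duplicated blocks of chromosome 16, such as the PKD1 pseudogenes, PDXDC1 and NOMO1, 31 or 32 were tested. None passed in HEK293T SF3B2 against eGFP or in the A549 comparisons with scramble, where 0.0185% to 1.49% of all genes did. In A549 SF3B2 against eGFP 2 of 31 were higher and none lower, where 3.42% and 3.6% of all genes were. The 2 higher genes were PKD1P3 (0.86 ± 0.19, adjusted p = 0.0419), which overlaps NPIPA1 on its strand, and PKD1P2 (0.64 ± 0.13, adjusted p = 0.0344). None passed in the difference between the lines, with a median of -0.34, where 3.52% of all genes were higher and 2.58% lower. Between the lines 9 of 31 were higher and 8 lower in HEK293T with eGFP, against 40.2% and 36.8% of all genes, and 5 and 13 of 31 with SF3B2, against 37.4% and 37.1%.

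The 8 duplicated families of other chromosomes (NBPF, GOLGA6, GOLGA8, RGPD, TBC1D3, LRRC37, PMS2P and SPDYE) were counted in the same way. In the within-line tests only GOLGA6C passed, in A549 SF3B2 against eGFP (0.82 ± 0.17, adjusted p = 0.0354), where 3.42% of all genes were higher. In the difference between the lines, SPDYE21 (-2.35 ± 0.43, adjusted p = 0.0156), SPDYE18 (-1.29 ± 0.24, adjusted p = 0.016) and PMS2P13 (-1.11 ± 0.22, adjusted p = 0.0194) were lower and no gene of the 8 families was higher. Of all genes, 2.58% were lower and 3.52% higher in that difference. Between the lines with eGFP, the calls higher and lower in HEK293T were 13 and 2 of 16 tested for NBPF, 6 and 1 of 11 for GOLGA6, 9 and 3 of 17 for GOLGA8, 3 and 1 of 8 for RGPD, 3 and 2 of 7 for TBC1D3, 8 and 2 of 12 for LRRC37, 3 and 2 of 8 for PMS2P, and 4 and 0 of 4 for SPDYE, against 40.2% and 36.8% of all genes. The TBC1D3 prefix also takes TBC1D30 and TBC1D32, which are other genes.

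Against scramble in HEK293T, where nothing was tested, the median log2 fold change with eGFP was 0.21 for the NMD factors, 0.36 for the chromosome 16 neighbours and 0.25 to 3.20 for the 8 families, with RGPD lowest and SPDYE highest over 4 genes. Over all genes it was -0.01. For the NPIPB copies it was 1.15. With snaR-A the medians of the 10 lists lay between 0.01 for GOLGA8 and 1.30 for SPDYE.

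The genes whose level was most like that of the NPIPB sum, by the lower of the 2 Pearson correlations over the 12 libraries of each line among 11708 genes, were MSANTD2, NBPF1, SLC4A5, FBXO38-DT and EPB41L4A-AS1. The correlations in HEK293T and A549 were 0.97 and 0.90 for MSANTD2, 0.87 and 0.85 for NBPF1, 0.85 and 0.84 for SLC4A5, 0.93 and 0.84 for FBXO38-DT, and 0.83 and 0.87 for EPB41L4A-AS1. NBPF1 is itself a member of a duplicated family. These are descriptions over libraries that share their depth, scaling and plasmid groups, with no test.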

How the data were processed

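Bulk RNA-seq of 24 libraries was used, 8 groups of 3. Per the study's methods and the labels, RNA was depleted of rRNA, enriched for poly(A) and made into stranded libraries, and the submitters' processing notes name Trim Galore, Salmon and the build hg38. The values are estimated counts per Ensembl gene, which the authors made with Salmon and deposited without normalization. Of these values 51.0% were not whole, and they were rounded before testing. A symbol was found for 39568 of 60236 genes.

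The main test was edgeR's quasi-likelihood F-test (edgeR 4.0.16, R 4.3.3) with filterByExpr, TMM factors and Benjamini-Hochberg adjustment over all genes tested, and a call was an adjusted p under 0.05. An SE is the absolute log2 fold change divided by the square root of that test's F statistic. Family sums replaced their copies in a second fit. DESeq2 1.42.0, exactTest, other scalings and filters and leaving out each library were alternatives. Copies with a mean of at least 1 CPM over the 24 libraries were named, with SMG1, up to 3 called genes of each list and the 5 genes most like the NPIPB sum. Words of 31 bases from annotated transcripts measured shared sequence. Levels are CPM with TMM factors over all libraries.

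The members and lists were chosen with earlier results of these data known. Replicate numbers did not pair the libraries. No pair of replicates was closer than 20.4 times the counting variance, so none was counted as 1 sample.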

Additional observations from a re-analysis of the deposited data

Results flagged for a closer look

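The effect of SF3B2 against eGFP differed between the lines by the interaction term (edgeR's quasi-likelihood F-test over 12 libraries, HEK293T minus A549) for NPIPB6 (-1.12, adjusted p = 0.0034), for SMG1P2 (-1.52, adjusted p = 0.0156) and for the SMG1P sum (-0.92, adjusted p = 0.0196). All 3 libraries with SF3B2 lay below all 3 with eGFP in HEK293T and above them in A549, for each of the 3. Against scramble, a plasmid of another type, the mean was higher with SF3B2 in both lines for each of them. The opposite signs were thus seen with eGFP as the reference and not with scramble. The reason for this was not tested. NPIPB6, for example, had means of 5.08 CPM with SF3B2 and 1.59 CPM with scramble in HEK293T, and 5.3 and 4.42 CPM in A549. Groups of 3 libraries are too small for a test of single outlying samples, and none was made.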

How the results depend on the processing

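All values here are log2 fold changes, or numbers of copies that passed an adjusted p of 0.05, and causes were not tested. In HEK293T SF3B2 against eGFP, the SMG1P sum passed with exactTest (-0.669, adjusted p = 0.00316), DESeq2 (-0.655, adjusted p = 0.000478) and all 12 libraries of the line (-0.66, adjusted p = 0.0141), and ranged from -0.806 to -0.532 with 1 library left out. Copies called were 4 with exactTest, 10 with DESeq2, 1 with at least 10 counts in every library, 4 with all 12 libraries, and 0 to 5 with 1 library left out, the 5 without SF3B2 replicate 3. Of all genes, 644 of 22623 passed with exactTest, 2079 of 22623 with DESeq2 and 109 of 20573 with at least 10 counts. With all 12 libraries it was 2075 of 23869, and without SF3B2 replicate 3 it was 1883 of 23264. In A549 snaR-A against scramble, library size alone turned NPIPA to 0.014 and NPIPB to 0.028, and NPIPB ranged from -0.091 to 0 with 1 library left out. There DESeq2 called 1 copy, where 38 of 21662 genes passed. In A549 eGFP against scramble, SMG1P turned to 0.023 by library size alone and 0.117 with SMG1 added, and ranged from -0.066 to 0.067 with 1 library left out (0.067 without eGFP replicate 3, 0.046 without scramble replicate 3). Both exactTest and DESeq2 called 1 copy there, where 422 and 532 of 21578 genes passed. In A549 SF3B2 against eGFP, SMG1P passed with exactTest (0.282, adjusted p = 0.019) and DESeq2 (0.276, adjusted p = 0.00748) and turned to -0.09 with SMG1 added. In these libraries SMG1 lay at 226 to 276.6 CPM and the SMG1P sum at 26.16 to 36.92 CPM. Values with SMG1 added are thus mostly those of SMG1, here and in A549 eGFP against scramble. With 1 library left out the SMG1P sum ranged from 0.206 to 0.333 and NPIPA from 0.057 to 0.235, both passing without eGFP replicate 3. Copies called were 0 by library size alone, 1 without a filter, 1 with all 12 libraries and 0 to 4 with 1 library left out. Of all genes, 1116 of 21581, 1281 of 36889 and 897 of 22635 passed in the first 3 of these settings. The 4 copies were called without eGFP replicate 3, where 3273 of 22194 genes passed. In A549 SF3B2 against scramble, DESeq2 gave 0.266 for SMG1P (adjusted p = 0.0395) and called 2 copies, where 377 of 21461 genes passed. With 1 library left out NPIPA ranged from -0.01 to 0.054 (-0.004 without SF3B2 replicate 2), NPIPB from -0.242 to -0.139, SMG1P from 0.211 to 0.314 and copies called from 0 to 8. The 8 were called without scramble replicate 3, where 4825 of 21989 genes passed. Between the lines with eGFP, library size alone gave 0.557 for NPIPA and 0.541 for NPIPB, and NPIPA ranged from -0.024 to 0.147 with 1 library left out. With SF3B2, library size alone gave 0.165 for NPIPA, 0.338 for NPIPB and 0.066 for SMG1P. NPIPB was 0.003 with at least 10 counts in every library, and SMG1P 0.06 with overlapping genes without a symbol added, an alternative chosen after seeing the data. With 1 library left out NPIPA ranged from -0.256 to -0.156, NPIPB from -0.087 to 0.015 (also 0.007 and 0.01) and SMG1P from -0.469 to -0.172. For the difference between the lines, NPIPB ranged from -0.097 to 0.023 (also 0.004) and SMG1P from -1.08 to -0.788 with 1 library left out. Copies called were 6 with DESeq2, 5 with at least 10 counts in every library, 3 by library size alone and 2 to 6 with 1 library left out, the 6 without HEK293T SF3B2 replicate 3. Of all genes, 4006 of 24714 passed with DESeq2, 2223 of 17801 with at least 10 counts and 1216 of 24714 by library size alone. Without HEK293T SF3B2 replicate 3 it was 4527 of 25301.

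Replicate numbers did not pair the libraries: residuals of same-numbered libraries had a median correlation of 0.00221 in HEK293T (-0.0987 to 0.13) and -0.0218 in A549 (-0.345 to 0.269) over 18 pairs each. With the replicate number as a block, the difference between the lines for SMG1P was -0.924 (adjusted p = 0.0568), and NPIPA between the lines with SF3B2 was -0.209 (adjusted p = 0.0506). In A549 SF3B2 against eGFP 0 copies passed with that block, where 654 of 21581 genes did.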
